A study of Mus musculus with 6 samples.

Results

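The genes described here are 42 mouse genes of the DNA damage response and of DNA repair, of 21631 protein-coding genes on chromosomes 1 to 19 and X. They were chosen by name to cover the repair of double-strand breaks, damaged bases, crosslinks and DNA held by a topoisomerase, and all 42 symbols were found in the gene table. ATAC-seq, an assay that inserts adapters into open chromatin with the Tn5 transposase, was run on marrow stroma enriched for mesenchymal stem and progenitor cells (MSPCs). One group of 3 libraries came from female Lepr-Cre;LSL-tdTomato+/- mice given doxorubicin (DOX) as 4 intravenous doses of 5 mg/kg, 1 week apart. The other 3 libraries came from female mice of that same genotype given phosphate-buffered saline (PBS) on that schedule. All mice were 8 to 10 weeks old at treatment and were killed 8 weeks after it. Cells were sorted for tdTomato, which marks cells in which the leptin receptor promoter has driven Cre and the descendants of such cells. The titles call the libraries biological replicates, but no label says how many mice each one holds, so a p-value measures the spread between these libraries.

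Doxorubicin traps topoisomerase II on DNA after it has cut, and leaves breaks with protein bound to their ends. The kinases Atm, Atr and DNA-dependent protein kinase (catalytic subunit gene Prkdc) sense breaks and stalled forks. Atm and Atr pass the signal to Chek1 and Chek2. Breaks are then rejoined directly by end joining or copied from the sister chromatid by homologous recombination, while excision, crosslink and bypass pathways deal with other lesions. Tdp1 and Tdp2 encode phosphodiesterases that cut trapped topoisomerase from DNA ends. Many of these genes are transcribed in most cell types from promoters rich in CpG.

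A library's list gives the places where its fragments piled up above background. The lists differed in depth and length: the background pileup, a measure of fragments per position, was 1.72, 1.67 and 2.22 in DOX libraries 1, 2 and 3 and 1.27, 1.10 and 0.558 in PBS libraries 1, 2 and 3. All lists were therefore shortened to their 65462 strongest peaks by -log10 p, the length of the shortest list, and a peak was described by its percentile in that list. Every DOX library was deeper than every PBS library, so depth and treatment cannot be told apart, and a missing peak says only that a place lay below that library's threshold. Of 10 MSPC markers, 8 to 9 were marked by a gene-end peak in DOX libraries and 8 to 9 in PBS libraries. Of 8 B cell markers, 2 did so in each DOX library and 1 in each PBS library. The other marker lists held 1 of 7 T and NK cell genes in each library, 2 to 4 of 8 endothelial genes in DOX and 2 to 3 in PBS, 2 of 8 erythroid genes in DOX and 1 to 2 in PBS, and 2 to 3 of 10 myeloid genes in DOX and 3 to 4 in PBS. The part of other cells in the results below was not tested. In sorted bulk cells, fewer cells with an open site and a less open site per cell cannot be told apart.

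Repair genes were open at their ends in both groups. With a gene end called open where a summit lay within 1 kb of either end of the gene span, 38 of 42 repair genes were open in each DOX library, against 38, 38 and 37 in PBS libraries 1, 2 and 3. In all 6 libraries 37 were open, which is 88.1%, beside 54.2% of all protein-coding genes (11716 of 21631). None was open in each DOX library but in no PBS library, beside 0.129% of all genes, and none the other way round, beside 0.0971%. All 5 kinases, all 6 break sensing genes and all 5 nucleotide excision genes were open in every library. Of 105 further repair genes in 8 lists, 103 were open in all 6 libraries. These include all 19 further base excision genes, all 14 nucleotide excision genes, all 10 Fanconi genes and all 8 mismatch repair genes. The 2 others were Rbbp8, a factor of DNA end resection, and Paxx, an end joining factor, neither of which had a gene-end peak in any library. Paxx did have a summit within 1 kb of its annotated RefSeq start site in all 6 libraries, and Rbbp8 has no such entry. Of the 82 further genes with an entry, 80 were open at such a start in all 6 libraries. Slx4 and Timeless, open at a gene end, were open at their start in none.

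The 5 repair genes not open by this rule in every library were Rad52, Lig1, Tdp1, Fancc and Xrcc6. Their start sites were therefore looked at one by one. An annotated RefSeq start site was at hand for 35 of the 42 genes. By the rule of a summit within 1 kb of such a start, 34 of these 35 were open in all 6 libraries, beside 56.3% of the 17274 protein-coding genes with an entry. This rule was added after the data had been seen, and by it 4 of the 5 genes were open in every library. Rad52, which anneals single strands, has its start 976 bp inside the span, with a peak between percentiles 73.8 and 78.1 over all libraries. Fancc, a subunit of the Fanconi core complex, has its start 65547 bp from the nearer end of its span. Its peak lay at percentiles 81.6, 84.6 and 85.4 in DOX libraries and at 84.0, 85.4 and 84.8 in PBS libraries. Xrcc6, which encodes Ku70 of the DNA end clamp, had only a weak peak at a gene end, at percentiles 9.87, 14.3 and 12.8 in DOX libraries, 17.1 and 2.78 in PBS libraries 1 and 2, and none in PBS library 3. At its start, 23716 bp from the nearer end, a strong peak stood in every library, at percentiles 94.9, 94.2 and 91.4 in DOX and 95.4, 94.8 and 92.6 in PBS. For these genes the 2 groups overlapped.

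Lig1, which encodes the ligase that seals Okazaki fragments and long repair patches, has 3 annotated starts on chromosome 7, of which the first stood apart. The first, at the end of the gene span, held no peak in any library. The second, 1651 bp further in, lay 62 to 73 bp from a summit in DOX libraries and 68 to 77 bp in PBS libraries. That peak stood at percentiles 89.2, 88.8 and 89.8 in DOX and 90.4, 90.5 and 89.5 in PBS. It was 719 to 746 bp wide in DOX libraries and 587 to 696 bp in PBS libraries. The last start, 2090 bp inside the span, is within 1 kb of that same peak, whose summit lay 501 to 512 bp away in DOX and 507 to 516 bp in PBS, so the peak cannot be given to one of these starts. The 300-base windows of the first and second starts are given, from 250 bases before to 50 after the start on the plus strand of build GRCm38.p6 (RefSeq), as the start without a peak and the start nearest to the summit. The first is chr7:13276925-13277224 and the second chr7:13278576-13278875. Capitals mark matches to 6 searched motifs on either strand: the CCAAT box CCAAT, the GC box GGGCGG, the ETS core CCGGAAG, the NRF1 core (GCGCA followed by its reverse complement), the E2F core GGCGGGAA or GCGCGAAA, and the TATA box TATAAA.
Lig1 first start: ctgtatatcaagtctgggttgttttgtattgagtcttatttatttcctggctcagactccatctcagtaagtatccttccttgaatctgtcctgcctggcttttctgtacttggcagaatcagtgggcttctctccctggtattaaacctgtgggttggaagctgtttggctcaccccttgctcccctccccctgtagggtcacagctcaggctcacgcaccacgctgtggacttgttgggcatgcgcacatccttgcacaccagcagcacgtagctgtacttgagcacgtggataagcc
Lig1 second start: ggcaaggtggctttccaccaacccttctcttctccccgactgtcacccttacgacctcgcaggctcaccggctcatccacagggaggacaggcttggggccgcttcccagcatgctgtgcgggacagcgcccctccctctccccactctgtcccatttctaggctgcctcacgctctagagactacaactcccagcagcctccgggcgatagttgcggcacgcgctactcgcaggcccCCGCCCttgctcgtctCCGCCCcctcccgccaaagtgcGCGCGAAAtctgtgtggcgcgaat
The first window has 5 CpG and a GC content of 51.3%, and none of the 6 motifs. The second, which held the summit in 6 libraries, has 23 CpG and 65% GC, 2 GC boxes and 1 E2F core. The last window held the summit in 0 libraries, yet has 21 CpG, 64.3% GC and 1 GC box. A GC box occurs in 46.7% and an E2F core in 3.32% of all 21045 promoter windows of protein-coding genes. A match in letters is not a bound site.

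Tdp1, whose product removes topoisomerase I and other adducts from DNA ends, was the only one of the 35 genes with no summit within 1 kb of its start in any library. Its nearest peak missed that limit narrowly. The summit lay 1017 to 1021 bp before the Tdp1 span in DOX libraries and 1017 bp in each PBS library, and 944 to 948 bp from the end of the neighbouring gene Efcab11. The peak was 1669, 1793 and 1827 bp wide in DOX libraries and 1580, 1834 and 1667 bp in PBS libraries. It reached 366, 451 and 468 bases past the Tdp1 span start in DOX and 334, 531 and 386 in PBS, so the start itself lay inside a peak in every library. Its strength was high and overlapped between groups, at percentiles 93.9, 95.7 and 94.6 in DOX and 93.3, 94.3 and 93.1 in PBS. The Tdp1 start window, chr12:99884268-99884567 on the plus strand (RefSeq, GRCm38.p6), is shown because it lies under the edge of this peak rather than its summit.
Tdp1: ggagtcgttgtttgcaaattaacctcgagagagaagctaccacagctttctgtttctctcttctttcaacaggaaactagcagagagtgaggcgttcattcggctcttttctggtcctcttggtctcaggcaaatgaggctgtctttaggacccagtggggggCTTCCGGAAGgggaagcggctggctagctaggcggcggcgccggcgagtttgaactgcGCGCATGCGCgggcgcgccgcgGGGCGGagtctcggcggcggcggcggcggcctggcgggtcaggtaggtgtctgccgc
The capitals hold a stretch that reads as an ETS core on both strands, an NRF1 core and a GC box. An NRF1 core stands in 1.34% and an ETS core in 11.7% of all windows.

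**Figure D1:**
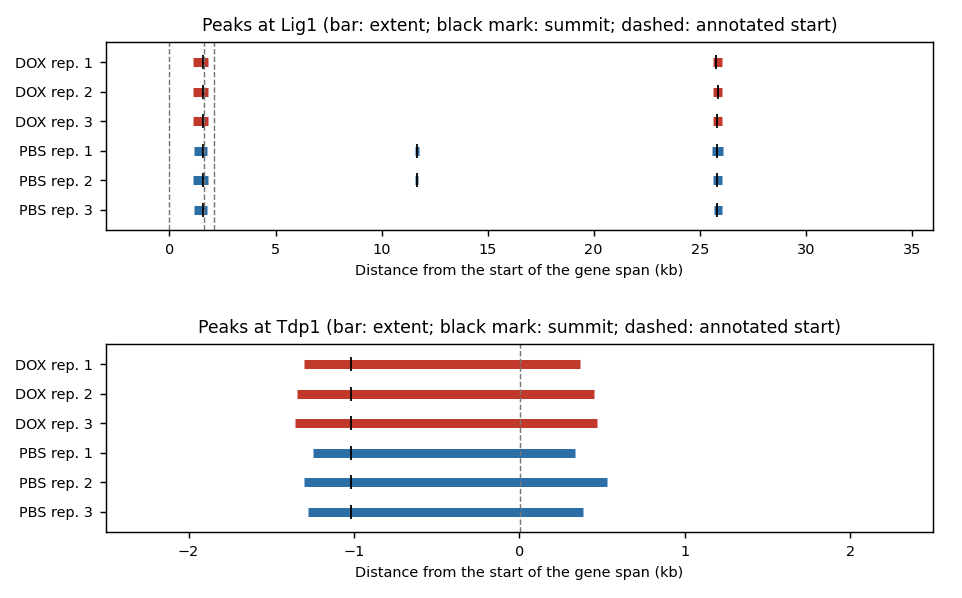
Extent of the peaks of the equal-length lists at Lig1 (upper panel) and Tdp1 (lower panel) against the distance from the start of the gene span in kb, one row per library with DOX above PBS. Black marks are summits and dashed lines annotated starts: the first Lig1 start has no peak in any of the 6 libraries, and the Tdp1 start lies inside a peak whose summit is 1017 to 1021 bp before the span.

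The strength of the start-site peak varied widely between genes. Over the 41 genes with such a peak (the annotated start for 34 and the gene end for the 7 with no entry), percentiles ran between 63.2 and 99.9 in DOX libraries and between 55.7 and 99.8 in PBS libraries. All 41 stood above the 50th percentile in every library, 33 above the 75th, 16 above the 90th and 5 above the 99th. The 5 above the 99th were Chek2, Atm, Brca1, Xrcc3 and Xrcc4. At each of these but Chek2, an annotated start pointing the other way was found within 1 kb (Npat, Nbr1, Zfyve21 and Tmem167, in that order). The peaks with such a partner cannot be given to the repair gene alone. Only starts with a RefSeq entry could be found, so a partner of Chek2 without an entry would have been missed.

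Among the damage kinases, Chek2 had the highest median percentile of all 41, with Xrcc3 above it in some libraries. It stood at percentiles 99.7, 99.9 and 99.8 in DOX libraries and 99.7, 99.6 and 99.3 in PBS libraries. At its summit 568, 690 and 848 fragments were piled in DOX and 461, 443 and 209 in PBS. These pileups are not scaled for depth, which was greater in every DOX library, so they cannot be compared between groups. Atm, the kinase called by broken ends, stood at percentiles 99.3, 99.1 and 99.2 in DOX and 99.5, 99.3 and 99.3 in PBS. Prkdc was at 98.2 ± 0.630 in DOX and 98.5 ± 0.380 in PBS (mean ± SD of percentiles, n = 3 each). Atr, the kinase of stalled forks, was lower, at percentiles 86.5, 86.4 and 86.5 in DOX and 88.5, 86.3 and 86.7 in PBS. Chek1, which Atr activates, was the lowest kinase at percentiles 68.3, 69.6 and 66.6 in DOX and 62.9, 72.6 and 61.1 in PBS. The order of Chek2 and Atm above Atr, and of Atr above Chek1, held in each of the 6 libraries, while Atm and Prkdc were closer together.

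The start windows of Atm and Chek1 are set side by side as the strong and the weak end of the signalling kinases. Both are on the minus strand of build GRCm38.p6 (RefSeq), Atm at chr9:53536622-53536921 and Chek1 at chr9:36726609-36726908, and both are written in the direction of transcription with motif matches in capitals.
Atm: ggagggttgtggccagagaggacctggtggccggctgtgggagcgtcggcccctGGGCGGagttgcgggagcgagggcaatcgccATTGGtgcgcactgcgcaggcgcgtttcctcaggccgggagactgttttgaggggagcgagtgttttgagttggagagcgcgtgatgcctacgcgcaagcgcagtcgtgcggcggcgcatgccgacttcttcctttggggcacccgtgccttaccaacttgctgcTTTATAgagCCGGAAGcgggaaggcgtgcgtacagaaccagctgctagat
Chek1: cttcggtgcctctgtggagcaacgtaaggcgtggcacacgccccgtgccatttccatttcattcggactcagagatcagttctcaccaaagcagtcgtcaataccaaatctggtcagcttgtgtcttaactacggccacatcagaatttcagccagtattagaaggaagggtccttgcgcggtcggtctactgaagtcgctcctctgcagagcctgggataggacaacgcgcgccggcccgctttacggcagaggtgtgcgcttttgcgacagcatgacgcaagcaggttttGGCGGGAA
The Atm window has 28 CpG at 64% GC and the Chek1 window 22 CpG at 55.3% GC. The letters searched gave 1 CCAAT box, 1 GC box, 1 ETS core and 1 TATA box at Atm and 1 E2F core at Chek1. A CCAAT box stands in 38.5% and a TATA box in 12.7% of all windows. The summit lay inside the Chek1 window in 6 libraries and inside the Atm window in 4. The Atm peak also covers the start of Npat, which points the other way.

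The break sensing genes build the chromatin signal beside a break. Mdc1, the adaptor that binds phosphorylated H2AX, was the strongest of the 6 at 98.6 ± 0.417 in DOX and 98.5 ± 0.0548 in PBS (percentiles, mean ± SD, n = 3 each). Trp53bp1, which steers breaks to end joining, had a peak at percentiles 97.9, 97.6 and 97.9 in DOX and 97.3, 98.5 and 97.9 in PBS at its annotated start, 24947 bp inside the span. At its gene end the peak was weaker, at 78.7 to 82.0 in DOX and 81.2, 82.8 and 80.4 in PBS. The ubiquitin ligase gene Rnf168 was the lowest of the 6 at 78.0 ± 1.01 in DOX and 78.6 ± 1.93 in PBS. In none of the 6 genes did the groups separate.

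The 10 homologous recombination genes ranged widely. Xrcc3, which acts in strand exchange, stood at percentiles 99.7, 99.4 and 99.6 in DOX and 99.8, 99.6 and 99.8 in PBS. Brca1, which promotes the resection of broken ends, was at 99.5 ± 0.114 in DOX and 99.5 ± 0.122 in PBS. Its summit lay 780 bp before the Brca1 start and inside the span of Nbr1, whose start is 152 bp from that of Brca1. At the other end Rad52 was at 76.1 ± 2.18 in DOX and 75.1 ± 1.08 in PBS, and Xrcc2, which also acts in recombination, was at 78.8, 76.8 and 77.9 in DOX and 79.7, 73.2 and 72.2 in PBS. Palb2, the bridge between Brca1 and Brca2, was the only one of the 10 whose groups separated, and it is described with the tests.

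In end joining Xrcc4, the scaffold of the final ligation, stood at percentiles 99.4, 99.5 and 99.5 in DOX and 99.2, 99.5 and 99.3 in PBS. Lig4, its ligase partner, was at 96.1 ± 0.513 in DOX and 96.8 ± 0.235 in PBS at the start that lies 1369 bp inside its span. At the outermost Lig4 start the peak was weaker, at 75.4, 73.4 and 77.0 in DOX and 73.6, 75.2 and 73.4 in PBS. The Ku80 gene Xrcc5 was the lowest of the 4 at 79.9 ± 0.570 in DOX and 80.8 ± 4.08 in PBS. The start-site peaks of the Ku clamp genes thus differed, Xrcc6 above Xrcc5 in each of the 6 libraries. The Xrcc6 start lies 149 bp from that of Desi1, which points the other way, so its peak cannot be given to Xrcc6 alone. The same holds for Xrcc4 and Tmem167, 59 bp apart.

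Among the single-strand break and base excision genes, Parp2, a break-sensing poly(ADP-ribose) polymerase, was highest at 98.4 ± 0.340 in DOX and 98.4 ± 0.410 in PBS, and Lig3 lowest at 86.6 ± 1.43 in DOX and 84.2 ± 2.07 in PBS. In nucleotide excision repair, Ercc4, the catalytic subunit of the incision nuclease, was at 97.5 ± 0.457 in DOX and 96.8 ± 0.394 in PBS, while its partner Ercc1 was the lowest of the 5 at 76.2 ± 2.61 in DOX and 74.4 ± 0.838 in PBS. The Fanconi genes included the lowest peak of all, at Fancd2, the protein that is ubiquitinated at crosslinks, with percentiles 63.6, 63.2 and 65.5 in DOX and 67.3, 55.7 and 68.7 in PBS. The summit of that peak lay 23 bp outside the Fancd2 span and inside the span of Emc3, so it cannot be given to Fancd2 alone. Polh, the bypass polymerase for ultraviolet lesions, stood at 74.4 ± 2.11 in DOX and 75.4 ± 1.26 in PBS. Ercc1 shows what a gene span can hide: its gene-end peak was at 26.1, 37.2 and 25.1 in DOX and 29.4 and 36.3 in PBS libraries 1 and 2, but at 75.1 in PBS library 3, in which the summit of the start-site peak fell within 1 kb of the span end.

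**Figure D2:**
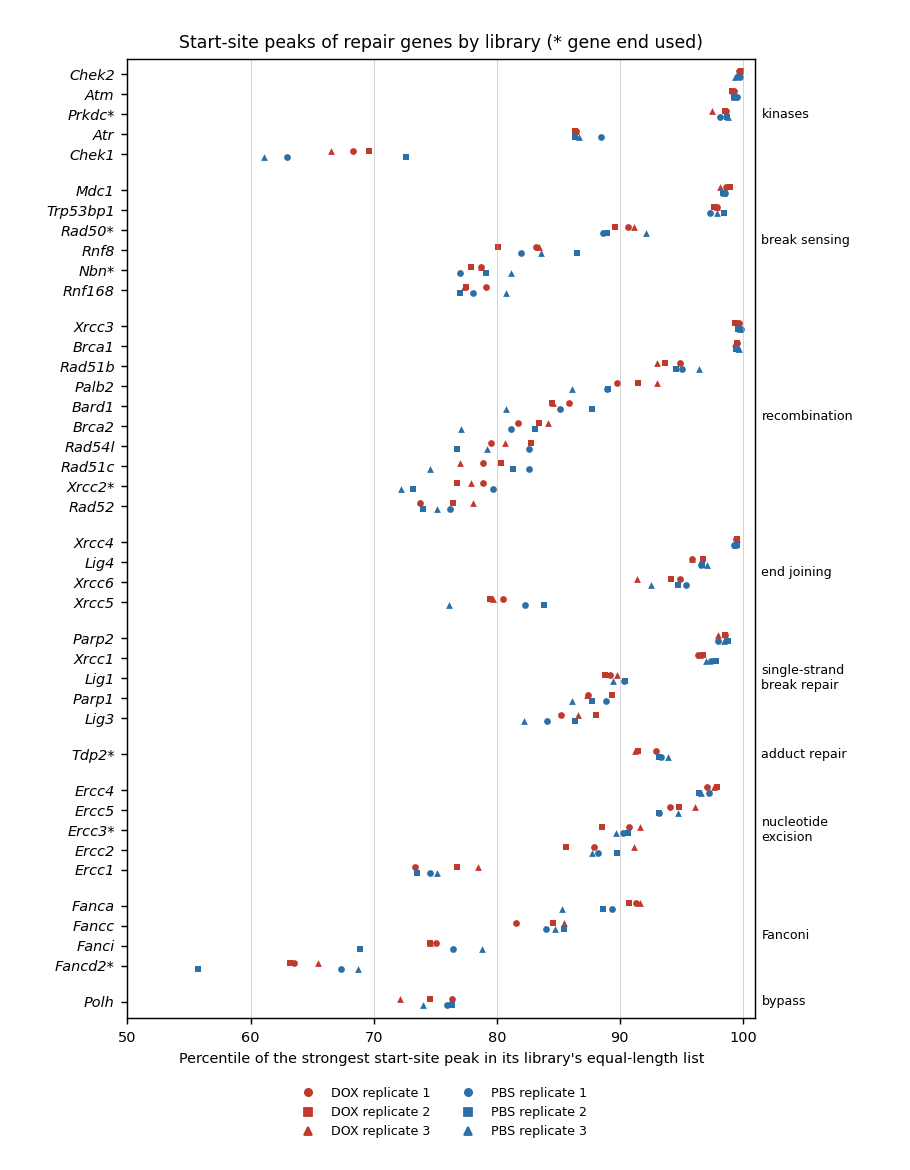
Percentile of the strongest start-site peak of each repair gene in the equal-length list of each library, by role, with DOX in red just above PBS in blue and one symbol per replicate. An asterisk marks a gene with no annotated start, shown at its gene end. Tdp1 has no summit within 1 kb of its start and is not shown. Genes range between Chek2 near percentile 99.8 and Fancd2 near 64.1, and within most genes the symbols of the 2 groups overlap.

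Whether DOX changed the rank of these peaks was tested over all 49098 regions that carried a peak in all 6 lists. The value was the normal score of a region's rank within a library, and limma compared DOX with PBS. At adjusted p under 0.05 no region was called higher and none lower, beside 3441 higher (7.01%) and 2993 lower (6.1%) at an unadjusted p under 0.05. Of the 38 regions at gene ends of 37 repair genes, none was called. At the unadjusted threshold 3 were higher and 0 lower, beside 5.85% and 6.1% of all 11266 shared gene-end regions. Differences ran between -0.21 and 0.21 with a median of -0.01, as over all gene-end regions (-0.01), and 17 were above and 21 below 0. These regions ranked like gene ends in general, with a median percentile among shared regions of 82.8, against 81.0 for all gene ends and 49.6 for all shared regions.

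The 3 regions with an unadjusted p under 0.05 were those of Chek2, Palb2 and Fanca. At Palb2 (chr7:122132627-122133307) the peak stood at percentiles 89.8, 91.4 and 93.1 in DOX and 89.0, 89.1 and 86.1 in PBS, so every DOX value lay above every PBS value. The normal score averaged 1.21 in DOX and 1.00 in PBS, a difference of 0.21 ± 0.07 (SE; limma, adjusted p = 0.244). At Fanca (chr8:123318314-123318828), whose product belongs to the Fanconi core complex, percentiles were 91.3, 90.8 and 91.6 in DOX and 89.4, 88.6 and 85.3 in PBS. These groups did not overlap either, and the difference was 0.20 ± 0.07 (limma, adjusted p = 0.236). At Chek2 the groups overlapped, and the difference was 0.21 ± 0.10 (limma, adjusted p = 0.361). None of the 3 passed the adjusted threshold. In simulated data, shifts in either direction were placed on regions drawn from all 49098 shared regions, of any strength. The test called 19 of 100 shifts of 0.5 and 54 of 100 shifts of 1. Shifts at gene-end regions were not simulated apart, so these shares do not say what the test would miss at these 3.

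In the other direction, 3 regions had every PBS value above every DOX value: Atm, Xrcc1 and Tdp2. Over all shared gene-end regions this was so in 11%, and every DOX value was above every PBS value in 8.9%. Tdp2, whose product frees DNA ends from topoisomerase II, had a peak (chr13:24831118-24832388) at percentiles 92.9, 91.4 and 91.2 in DOX and 93.3, 93.2 and 93.9 in PBS. Its difference was -0.12 ± 0.07 (limma, adjusted p = 0.44). Xrcc1, the scaffold of single-strand break repair, was at 96.4, 96.7 and 96.5 in DOX and 97.4, 97.8 and 97.0 in PBS, a difference of -0.13 ± 0.07 (limma, adjusted p = 0.428). Atm, given above, differed by -0.09 ± 0.08 (limma, adjusted p = 0.667). The most negative differences were -0.21 ± 0.15 at the far end of Brca2, where N4bp2l1 is the nearer gene (limma, adjusted p = 0.587), -0.18 ± 0.27 at Ercc1, -0.17 ± 0.09 at Xrcc3 and -0.15 ± 0.07 at Rad51b. Ercc4 and Ercc5, the nucleases that cut on either side of a bulky lesion, completed the upper end with 0.13 ± 0.07 each (limma, adjusted p = 0.457 and 0.484).

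**Figure D3:**
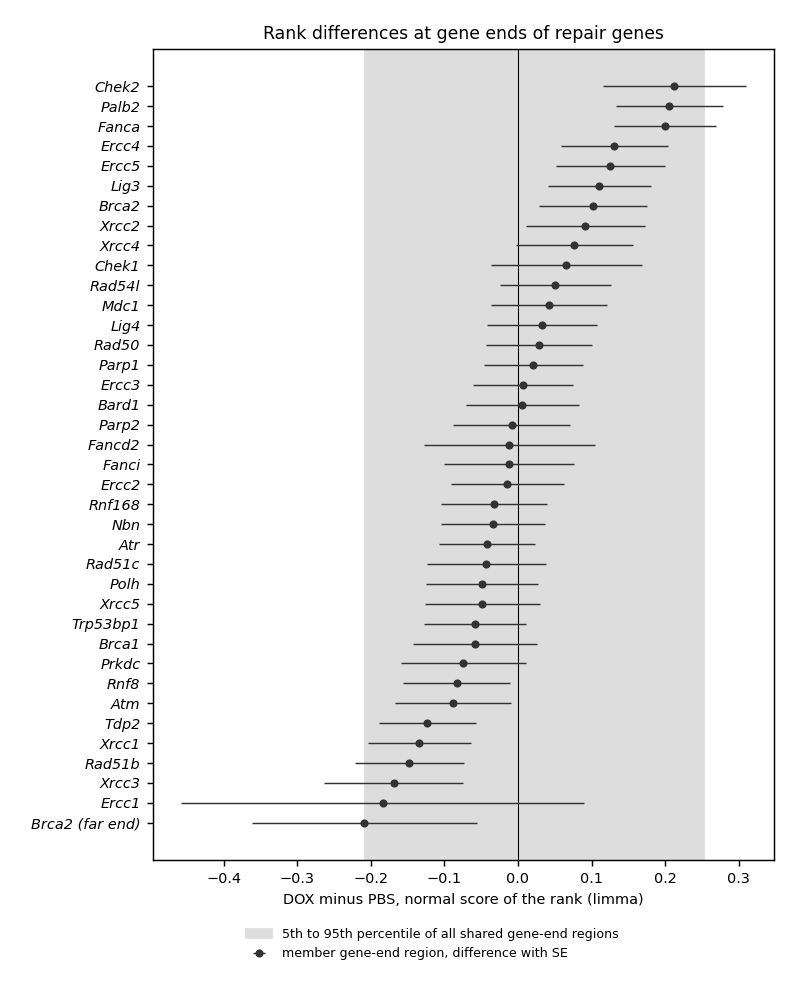
DOX minus PBS difference in normal score of the rank, with its SE from limma, for the 38 shared gene-end regions of repair genes, largest at the top. The grey band holds the 5th to 95th percentile of the 11266 shared gene-end regions (-0.21 to 0.25). The points lie between -0.21 and 0.21, about the width of the band.

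By role the median differences in normal score were -0.04 over 5 regions of damage kinases, -0.03 over 6 of break sensing, -0.02 over 10 of homologous recombination, 0.03 over 3 of end joining, 0.01 over 4 of single-strand break repair, 0.01 over 5 of nucleotide excision and -0.01 over 3 of the Fanconi pathway. The single regions of topoisomerase adduct repair (Tdp2) and translesion synthesis (Polh) stood at -0.12 and -0.05. At annotated starts in place of gene ends, 35 regions had a median of -0.01 with none called, and 3 were higher and 0 lower at the unadjusted threshold. The 111 gene-end regions of further repair genes held none called, with 9 higher and 8 lower at the unadjusted threshold. Beside both sets stand 5.85% higher and 6.1% lower of all 11266 shared gene-end regions. The annotated starts of all genes were not counted apart.

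Among peaks away from gene ends the shift largest in size was in a region inside Lig1, singled out after its values had been seen. Over the 120 shared regions assigned to repair genes, none was called. At an unadjusted p under 0.05 by limma there were 7 higher and 6 lower, beside 7.01% and 6.1% of all shared regions. Every DOX value was above every PBS value in 10 of them and the reverse held in 12, beside 9.37% and 9.41% of all shared regions. The region chr7:13302773-13303269 lies inside the Lig1 span, 25792 bp from its start. It stood at percentiles 47.1, 27.1 and 21.9 in DOX and 60.5, 62.1 and 57.1 in PBS, with no overlap between groups. The difference in normal score was -1.06 ± 0.23 (SE; limma, unadjusted p = 0.000194, adjusted p = 0.101). It was the largest in size of the 120, and it did not pass the adjusted threshold. Differences ran between -0.77 and 0.64 in regions assigned to Rad51b, and between -1.72 and 1.69 over all shared regions. The percentiles of the Lig1 start-site peak averaged 89.2 ± 0.520 in DOX and 90.1 ± 0.544 in PBS (SD, n = 3 each) and overlapped between groups. Another Lig1 region, 11660 bp from the span start, held a peak in PBS libraries 1 and 2 and in no DOX library. PBS library 3 held none there either, so it does not count as listed in 1 group only. The share of all regions with this pattern was not counted, so it cannot be read as a result about Lig1.

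Of 178 union regions assigned to repair genes, 120 were listed in all 6 libraries (67.4%, beside 62.5% of all 78613 union regions). One was listed in each DOX library but in no PBS library, beside 0.792% of all regions, and 0 the other way, beside 0.303%. The single region lay inside Rad51b at chr12:79842319-79842748, at percentiles 19.7, 3.65 and 11.3 of the DOX lists. The longer deposited lists of PBS libraries 1 and 2 also held a peak there, weaker than the last peak kept. Without PBS library 2 the count of DOX-only regions was 5, and without PBS library 3 that of PBS-only regions was 3. With a library left out the rule is easier to meet for any region. The share over all regions was not counted for these settings, so these counts cannot be read as a result about repair genes.

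Rad51b, a subunit of the complex that also holds Rad51c and Xrcc2, carried the most peaks of any protein-coding gene. Its span, chr12:79297282-79848260, is 551 kb long. In the equal-length lists 71, 73 and 76 peaks were assigned to it in DOX libraries and 76, 76 and 78 in PBS libraries. The mean over 6 libraries was 75, ahead of Tns3 with 64.2. Counting only peaks inside the span, it held 56, 58 and 64 in DOX and 62, 62 and 62 in PBS, again first of 21631 genes, with Foxp1 next at 53.8. The 228 genes with spans of 400 to 700 kb had a median of 7.83 assigned peaks, and the highest of the others had 60.8. The groups differed by -0.06 ± 0.03 in log2(peaks + 0.5) (SE; limma, adjusted p = 0.655).

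These peaks formed 84 union regions, 67 inside the span and 17 beyond its ends, up to 96620 bp away, and 54 were listed in all 6 libraries. Of these 54, 7 had a median percentile above 90 and 16 one below 50. The strongest, chr12:79942366-79943541, lay 645 kb from the span start and thus beyond the far end, where Rad51b was still the nearest gene. It stood at percentiles 96.8, 97.7 and 97.2 in DOX and 96.5, 95.4 and 94.7 in PBS, a difference of 0.22 ± 0.07 (limma, adjusted p = 0.221). The strongest inside the span, chr12:79600060-79600824, lay 303 kb from its start at percentiles 93.9, 94.4 and 92.6 in DOX and 94.6, 95.4 and 95.7 in PBS. Its difference was -0.15 ± 0.07 (limma, adjusted p = 0.355). In both regions the groups did not overlap, in opposite directions. Over the 54 regions 30 differences were above 0 and 24 below. All DOX values were above all PBS values in 7 and the reverse held in 6, beside 9.37% and 9.41% of all shared regions. None was called, with 4 higher and 4 lower at an unadjusted p under 0.05 by limma, beside 7.01% and 6.1% of all shared regions. The peak at the Rad51b start belongs by distance to Zfyve26, whose start lies 1000 bp away and points the other way.

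**Figure D4:**
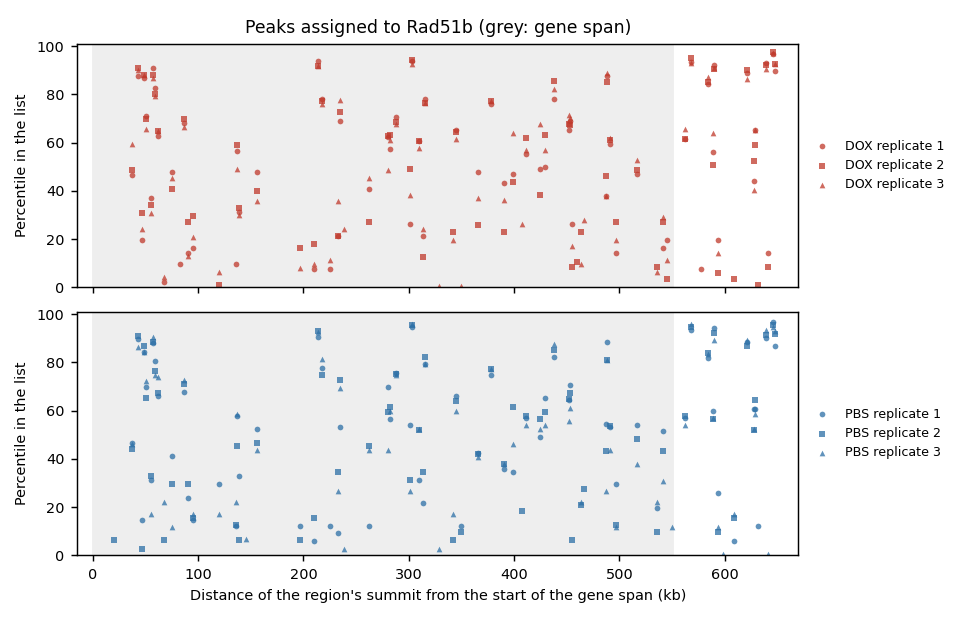
Percentile of each peak assigned to Rad51b against the distance of its region's summit from the start of the gene span in kb, with DOX libraries in the upper and PBS libraries in the lower panel. Grey marks the 551 kb span. Peaks lie along the whole span and beyond its far end in both groups. The 7 shared regions with a median percentile above 90 lie 214, 303, 568, 590, 640, 645 and 648 kb from the span start.

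Other repair genes had few peaks. Fancc was assigned 8, 6 and 6 in DOX and 8, 9 and 6 in PBS, Ercc1 5, 6 and 6 in DOX and 6, 5 and 6 in PBS, Trp53bp1 5, 5 and 5 in DOX and 4, 5 and 4 in PBS, and Prkdc 4, 5 and 4 in DOX and 5, 4 and 4 in PBS. In 24 of the 42 genes the number was the same in all 6 libraries, and in 14 of these it was a single peak. Atm, Brca1 and Tdp1 had 0, because the peak at their start lay nearest to Npat, Nbr1 and Efcab11. Of the 18 genes that averaged 2 or more peaks none was called, beside 47 higher (0.535%) and 48 lower (0.546%) of 8784 genes tested with limma, and the lowest adjusted p was 0.655, with 0 at an unadjusted p under 0.05, beside 5.57% of all genes tested (489 of 8784). Of the 95 genes called, 91 held the same number of peaks within each group, so their p rests on a lack of spread in small whole numbers. The differences of these 18 were above 0 in 4, below in 4 and 0 in 10. Without PBS library 2, Trp53bp1 was called higher, and without PBS library 3, Lig1 was called lower. In each case the libraries left in a group held the same number, so the gene had no spread within groups. Of 37 further repair genes tested, none was called at adjusted p under 0.05 by limma and 2 had an unadjusted p under 0.05, beside the same 5.57% of all genes.

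Gene-end peaks of repair genes were wider in DOX libraries, as peaks were throughout the lists. Over the 38 gene-end regions the median width was 928, 976 and 1040 bp in DOX and 815, 920 and 747 bp in PBS, and the DOX mean was the larger in all 38. Every DOX width exceeded every PBS width in 22, which is 57.9%, beside 38.6% of all shared gene-end regions, and the reverse held in 0, beside 0.0355%. The DOX mean was also the larger in 10897 of all 11266 shared gene-end regions. Depth moves with this result, since every DOX library was deeper, and its part was not tested.

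Features of the start sites that the choice of genes did not use were compared with those of all genes. A start of another protein-coding gene that points away on the other strand lay within 1 kb in 13 of the 35 genes with an annotated start (37.1%), beside 8.59% of all 17274 such genes. Among genes with a start open in all 6 libraries it was 13 of 34 (38.2%), beside 14.5% of 9719. Partners without an annotated start could not be counted, for the repair genes or for all genes. The pairs with the shortest distance were Lig4 and Abhd13 (37 bp), Xrcc4 and Tmem167 (59 bp), Atr and 1700065D16Rik (80 bp), Palb2 and Dctn5 (95 bp), and Lig1 and Zswim9 (105 bp). Brca1 and Nbr1 lay 152 bp apart and Atm and Npat 376 bp. A peak over such a pair cannot be given to one gene of the pair.

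The 41 promoter windows of these 35 genes had a median GC content of 58.7%, beside 56.7% for all windows and 61.3% for windows of genes with a start open in all 6 libraries. They held a median of 22 CpG, beside 13 for all windows and 21 for those of open genes. The E2F core stood in 17.1% of member windows, beside 3.32% of all and 4.71% of open ones. The NRF1 core stood in 7.32%, beside 1.34% and 2.07%, and the ETS core in 24.4%, beside 11.7% and 17.5%. The GC box stood in 68.3%, beside 46.7% and 64.7%, and the CCAAT box in 46.3%, beside 38.5% and 38.0%. The TATA box stood in 4.88% of member windows, beside 12.7% and 6.75%. Of the 41 member windows, 2 held a TATA box, 3 an NRF1 core and 7 an E2F core, so these shares rest on few windows. Several genes gave more than 1 window, and some of these overlap.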

How the data were processed

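Per the submitters' processing notes the build was mm10, and the tools include Bowtie2 2.4.5 and MACS2 2.2.7.1, with no role given; no label or file header states peak-calling settings or a Tn5 shift. The authors deposited 1 peak list per library (91026, 91060 and 100642 peaks in DOX libraries; 88348, 89264 and 65462 in PBS libraries). Each deposited peak has from the authors' peak caller a fold enrichment (a ratio to background), a score and the -log10 of its p and q, and these were used only within their own list. The background pileup was solved from fold and -log10 p under a Poisson model, and 100% of pileups were then whole to within 0.05.

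Peaks of the 6 equal-length lists that overlapped by at least 1 bp were merged into union regions. Each summit went to the nearest protein-coding span of GRCm38.p6 within 100 kb. Normal scores of ranks and log2(peaks + 0.5), for genes that averaged 2 or more peaks, were compared with limma 3.58.1 in R 4.3.3 (trend and robust moderation, Benjamini-Hochberg over all regions or genes), without covariates. The code was tested on simulated data, in which the test of peaks per gene also called unchanged genes more often than its threshold allows. A two-sided exact test of 3 against 3 cannot go below p = 0.1, so single counts were not tested. Promoter windows came from RefSeq. The members, lists and tests were chosen with earlier results of these data known. Genes named in full were those called or with a region in 1 group only, not open in every library, highest or lowest in their role, among the 5 largest or smallest differences or the 5 with most peaks, and Tdp1, Tdp2, Atm, Atr and Prkdc; Brca1, Lig4, Trp53bp1 at its start, Xrcc5 and the Lig1 inner region were chosen after their values were seen. Alternatives were the full lists, the stronger 32731 peaks, other gene-end windows, other scalings, a replicate block and leaving out each library.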

Additional observations from a re-analysis of the deposited data

How the results depend on the processing

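The replicate numbers did not pair the libraries: correlations of same-numbered deviations from the group means were 0.113, -0.101 and 0.0441. With a replicate block, 32 shared regions were called higher and 16 lower by limma, and the inner Lig1 region kept its difference of -1.06 with an adjusted p of 0.0425; 21 genes were called higher and 17 lower for peaks per gene. With the strongest 32731 peaks of each list 2 shared regions were called higher. Leaving out 1 library gave between 0 and 82 shared regions called higher and between 0 and 11 lower, the highest of both without PBS replicate 1. It gave between 95 and 145 genes called higher and between 70 and 137 lower for peaks per gene, and between 0 and 1 repair genes in each direction. Peaks per gene called 76 genes higher and 13 lower in the full deposited lists, 112 and 93 over all genes with a peak, and 75 and 24 with union regions counted. The repair gene regions listed in DOX only numbered 3 in the full lists, 0 among the strongest 32731 peaks and 2 where a peak had to cover 0.5 of the region; among the strongest 32731 peaks 1 was listed in PBS only. Leaving out 1 library gave between 1 and 5 in DOX only and between 0 and 3 in PBS only. For these region counts the share over all regions was not counted under the same settings. The cause of these moves was not tested. The other 115 counts stayed within 1.5 times. Of the values of single named regions, none changed direction, and the inner Lig1 region was the only one to pass the adjusted threshold under any setting, with differences between -1.33 and -0.74 and adjusted p between 0.0425 and 0.334. Leaving out 1 library moved other differences by over 1.5 times: Chek2 lay between 0.12 and 0.28, Ercc5 between 0.07 and 0.17, the far end of Brca2 between -0.38 and -0.09, Ercc1 between -0.33 and -0.09, Xrcc3 between -0.24 and -0.10 and Rad51b between -0.19 and -0.08. The shallowest library, PBS replicate 3, limits what its list can hold.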
